A study of Drosophila melanogaster with 6 samples.

Results

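Chromatin that a preimmune serum recovers from wild-type ovaries of Drosophila melanogaster was compared with the input chromatin it was taken from, in 1 kb windows along the chromosomes. The members are the windows of the major arms (X, both arms of chromosomes 2 and 3, and chromosome 4) in which both libraries together held at least 20 reads, which was the case for 113907 of 120378 windows (94.6%). Of the 6471 windows left out, 5401 held no read in either library and 1070 held some; the minimum itself was of little weight, since 30 windows held 19 reads and 23 held 20. Both libraries came from ovaries of virgin females dissected within 6 h of eclosion, of the wild-type strain Canton S, and were fixed in 1.8% formaldehyde. The preimmune group is 1 library made by immunoprecipitation with preimmune serum, and the input group is 1 library of chromatin that was not precipitated. The antibody label of each sample names Su(Hw), that of preimmune and input included, and the tracks in the files are named igG for preimmune and WCE for input; the groups follow the source names of the samples. The other libraries used, for comparison alone, are preimmune and input from ovaries of su(Hw)f mutant females (strain label su(Hw)fv) of the same age, again 1 of each. The number of animals pooled in a library is not given in the sources used here, and an ovary holds germline and somatic cells that the libraries do not separate.

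Preimmune serum is blood serum drawn before an animal is immunised, so it holds antibodies but none raised against the target. What it brings down is the background of the precipitation: DNA held by the beads, by unspecific antibody contacts or by chromatin that is easily recovered. Input reports how much of each stretch of DNA entered the precipitation, which depends on copy number, on shearing and on how well a fragment is amplified and mapped. In a chromatin immunoprecipitation study the ratio of preimmune to input shows which places would look enriched or depleted without the specific antibody. In Drosophila, the large arms consist mostly of euchromatin, with heterochromatin toward the centromere. Chromosome 4 is a small chromosome that carries active genes within heterochromatin.

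The wild-type preimmune library held 12173312 reads, of which 97.4% lay on the major arms, and the input library held 13993582, of which 98.0% did. A window with the median reads of both libraries, 100 in preimmune and 116 in input, had a scaled ratio of 0.997 with a 95% counting interval of 0.755 to 1.31, which is the counting precision of a typical window. The difference between neighbouring 100 bp pieces was larger than counting error allows, by a variance factor of 3.46 in preimmune and 1.80 in input (1 for Poisson counts; mean of the 5 large arms), which counting intervals do not cover; how much of this is local signal and how much error was not tested. The X held a median of 114 input reads a window, within the 112 to 123 of the large autosomal arms, and the Y scaffold YHet held 26 preimmune and 27 input reads in these libraries from females. The mitochondrial genome was listed at 0 in each library. With 1 library a side no test was possible, and every interval below covers counting error only, since reads amplified by PCR are not independent molecules.

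Preimmune and input differed at least 2-fold in 22505 of the 113907 windows, which is 19.8%. Preimmune was the higher in 11102 windows (9.75%) and the lower in 11403 (10.01%). Both directions were about equally frequent. Scaling the libraries to their reads on the same arms centres the ratio near 1, so this balance depends on the scaling. The median log2 ratio was 0.02, and the central 90% of windows lay between 0.412-fold and 2.41-fold. Larger differences were rare on both sides: preimmune was at least 3-fold higher in 2323 windows and 3-fold lower in 2375, at least 4-fold higher in 602 and 4-fold lower in 553, and at least 5-fold higher in 212 and 5-fold lower in 177. The counting interval of the ratio excluded 1 in 59.2% of windows, in 99.8% of the windows called higher and in 99.85% of those called lower. The shares for called windows are nearly fixed by the 2-fold limit at this depth and are no support for the calls.

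Over 1 kb windows preimmune hardly followed input. When the windows were ranked by wild-type input and divided into 10 classes, median input went from 56 reads in the lowest class to 202 in the highest. Median preimmune was 85 reads in the lowest class, 107 in the third and the next, and 84 in the highest. Preimmune was therefore nearly level across a range of input of more than 3-fold, with a shallow maximum at low to middling input. The ratio went from a median of 1.90-fold in the lowest class to 0.472-fold in the highest, and it stood at 0.999 in the sixth class. In the lowest class 45.9% of windows were called higher and 1.89% lower; in the highest class 0.0264% were called higher and 57.7% lower. The 2 lowest classes held 74.0% of all windows called higher, and the 2 highest held 78.1% of all windows called lower, where these pairs of classes held 20.1% and 19.7% of the windows tested. Classes of wild-type preimmune, the other term of the ratio, divided the calls almost as strongly: the 2 highest held 67.7% of the windows called higher and the 2 lowest 74.2% of those called lower. Median input was 106 reads in the lowest class of preimmune, 125 in the second and 103 in the highest.

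Because the ratio divides by input, part of such a trend is arithmetic. Classes formed from the input of su(Hw)f, which shares no reads with the wild-type libraries, gave much the same picture. The inputs of the genotypes ranked windows alike (rho = 0.900 over the large arms), so these classes sorted the denominator again. They share no counting error with the ratio, but cannot show how much of the trend is arithmetic. Across them median wild-type input went from 59 to 198 reads and median wild-type preimmune from 97 to 79, with its highest value, 112, in the second class. The 2 lowest of these classes held 75.9% of the windows called higher, and the 2 highest held 80.9% of those called lower. Over windows in which every 100 bp piece held a read the course was alike: median preimmune was 105 reads in the lowest class of wild-type input and 83 in the highest.

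**Figure D1:**
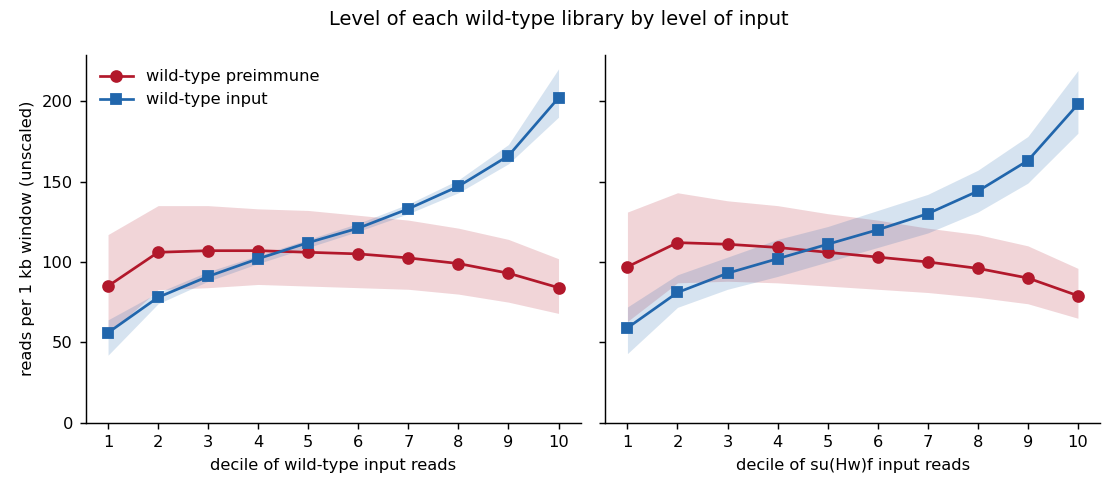
Median reads per 1 kb window (unscaled, bands from the 25th to the 75th percentile) in wild-type preimmune (red circles) and wild-type input (blue squares), against the decile of wild-type input (left) or of su(Hw)f input (right). Input runs from 56 to 202 reads on the left and from 59 to 198 on the right, while preimmune stays between 84 and 107 and between 79 and 112.

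Rank correlations describe the same lack of likeness. Over the 112738 tested windows of the large arms, Spearman's rho between wild-type preimmune and wild-type input was -0.0893. The inputs of the genotypes were close to each other at rho = 0.900, while the preimmune libraries of the genotypes were not (0.116). In su(Hw)f, preimmune followed its own input at 0.593. At 1 kb, wild-type preimmune was thus the library least like the other three. In wider windows of the large arms wild-type preimmune followed its input somewhat more, at rho = 0.0625 in 10 kb and 0.171 in 100 kb windows (Pearson's r = 0.353 and 0.520). These points are windows of the same 4 libraries, which share mapping and base composition, and are no replicates. By arm, rho between wild-type preimmune and input lay between -0.146 on 3R and -0.0350 on 3L for the large arms, against 0.525 on chromosome 4. Over windows in which every 100 bp piece held a read, it lay between -0.225 on 2R and -0.169 on 3L. There it was -0.201 over the large arms together and 0.339 on chromosome 4.

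A window called by its ratio must be high in one library, low in the other, or both, so the levels of called windows are a description of the calls. In windows called higher, median preimmune was 154 reads, 1.54 times its median over all tested windows, and median input was 71 reads, 0.612 times its own. In windows called lower, median preimmune was 63 reads, 0.630 times its median, and median input was 188 reads, 1.62 times its own. A preimmune level within 1.5-fold of the library median was found in 41.5% of the windows called higher and 42.2% of those called lower. The higher windows held 14.4% of the preimmune reads and 5.62% of the input reads on the arms, and the lower ones 6.02% and 15.4%.

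Chromosome 4 was the arm that stood apart. Preimmune held 1.62 times as many reads there as input (95% interval 1.61 to 1.63), from 125715 reads of the former and 89728 of the latter. The lowest ratio was that of 2R, at 0.930 (0.928 to 0.932). X followed at 0.969 (0.967 to 0.970), 3R at 0.990 (0.988 to 0.991), 3L at 1.032 (1.030 to 1.034) and 2L at 1.059 (1.057 to 1.061). No interval overlaps that of its neighbour in this order. Of the 1169 windows of chromosome 4 tested, 433 (37.0%) were called higher, against 9.75% over all arms, and 11 (0.941%) lower, against 10.01%. Among the large arms, 2L had the most windows called higher (11.3%) and 2R the fewest (7.56%), while X and 2R had the most called lower (12.8% and 12.2%) and 2L the fewest (8.21%).

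The excess on chromosome 4 went with a low input, while preimmune was close to that of the large arms. Its median preimmune was 105 reads a window, 1.06 times the median of the large arms, and its median input was 71 reads, 0.612 times theirs. Of its windows, 571 (48.8%) fell in the lowest of the 10 classes of input. Restricted to windows without an empty 100 bp piece, the multiples were 1.13 in preimmune and 0.655 in input, and the ratio was 1.60 (1.58 to 1.61). Set against windows of the large arms in the same class of wild-type input, chromosome 4 still had the higher median log2 ratio in each of the 10 classes. In the lowest class it was 1.08 on chromosome 4 and 0.92 on the large arms, in the third 0.69 and 0.45, and in the eighth 0.08 and -0.36. Chromosome 4 had 118 windows in the third class and 44 in the eighth, so the latter medians rest on few windows. In classes of su(Hw)f input chromosome 4 was also the higher in each, with smaller gaps in some. There the lowest class had 1.05 on chromosome 4 and 0.95 on the large arms, and the eighth -0.20 and -0.36. Median preimmune in the lowest class was 86 reads on chromosome 4 and 85 on the large arms by wild-type input. By su(Hw)f input it was 91 and 97. In the other classes of both kinds chromosome 4 had the higher median preimmune. Whether base composition accounts for any of this was not tested, since no dm3 sequence was used here.

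Along chromosome 4 the ratio was higher toward both ends. Each of its 12 bins of 100 kb with at least 50 tested windows was above 1, from 1.36 (1.321 to 1.397) at 700001 to 800000 to 1.97 (1.90 to 2.05) at 1200001 to 1300000. The bins 100001 to 200000 and 1100001 to 1200000 both stood at 1.80. Of its windows called higher, 41.6% were followed by another, little above the 37.0% of all its windows that were called higher; over all arms 19.3% were, where 9.75% of windows were called higher. Over all 1188 bins of the 6 arms the median was 1.02, and 140 bins reached 1.25 or more while 118 were at 0.8 or less.

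**Figure D2:**
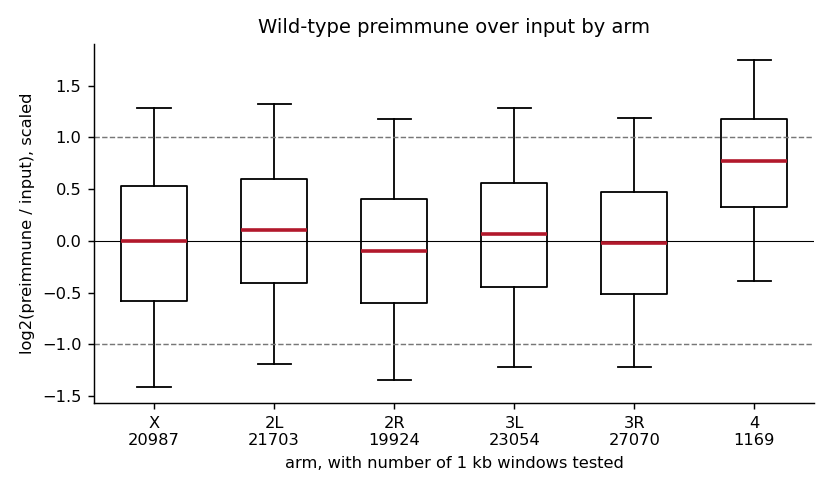
Distribution of the log2 ratio of wild-type preimmune to input over 1 kb windows by arm. Red lines are medians, boxes run from the 25th to the 75th percentile, whiskers from the 5th to the 95th, and dashed lines mark 2-fold. The median is 0.77 on chromosome 4 and between -0.10 and 0.10 on the large arms.

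The large arms differed from end to end. In the last 1.5 Mb on the centromere side preimmune was higher than input on 4 of the 5 arms, at 1.29 (1.28 to 1.30) on 2R, 1.28 (1.27 to 1.30) on 3L, 1.28 (1.27 to 1.29) on 2L and 1.10 (1.09 to 1.10) on X. 3R stood at 0.989 (0.983 to 0.996) over this length, with 1.034 (1.022 to 1.047) in the last 0.5 Mb, 1.028 (1.015 to 1.040) in the next and 0.921 (0.911 to 0.932) in the one after. Windows called higher made up 24.0% there on 3L, 22.8% on 2R and 21.2% on 2L, against 10.3% on 3R. As on chromosome 4, input was low: its median window held 58 reads on 3L and 66 on 2R, against 125 on 3R, while preimmune held 65, 81 and 104. In contrast to chromosome 4, preimmune was low as well on 3L and 2R.

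Pooled over arms, the excess became smaller over the first 3 Mb from the centromere side. Over the 5 large arms together, the ratio was 1.18 within 0.5 Mb of that end, 1.17 from there to 1 Mb, 1.10 to 1.5 Mb, 1.09 to 2 Mb and 0.957 between 2 and 3 Mb. Between 5 and 10 Mb it was again above 1, at 1.040 (1.038 to 1.042). Individual arms departed from this course. On X the stretch between 2 and 3 Mb from the end was at 0.772 (0.765 to 0.779), the lowest of the arms at this distance, and between 5 and 10 Mb 2L was at 1.16 (1.16 to 1.17) and 3L at 1.10 (1.10 to 1.11).

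The telomere side as a whole showed the opposite sign. In the outermost 1.5 Mb preimmune was lower than input on each of the 5 large arms, at 0.805 (0.799 to 0.810) on 2R, 0.849 (0.844 to 0.855) on X, 0.901 on 2L, 0.916 on 3L and 0.962 (0.955 to 0.968) on 3R. Median input was high in these stretches, from 125 reads a window on 3R to 143 on 2R, and median preimmune was between 96 and 102. The outermost 100 kb bin went the other way on each of the 5 arms. It was at 1.65 (1.58 to 1.72) on 2R, where it is a partial bin with 46 tested windows, at 1.46 (1.41 to 1.51) on X, at 1.42 (1.38 to 1.47) on 3R, at 1.42 (1.36 to 1.49) on 3L, with 37 tested windows, and at 1.23 (1.19 to 1.26) on 2L. Each was above 1 in su(Hw)f as well, from 1.30 to 1.67. By the third bin from the tip the ratio was below 1 on 2L, 3L and 3R and at 1.01 (0.985 to 1.04) on 2R, while on X it was 1.51 (1.47 to 1.55), and a run of low bins began there at 1100001. These outermost bins were singled out after their values were seen.

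**Figure D3:**
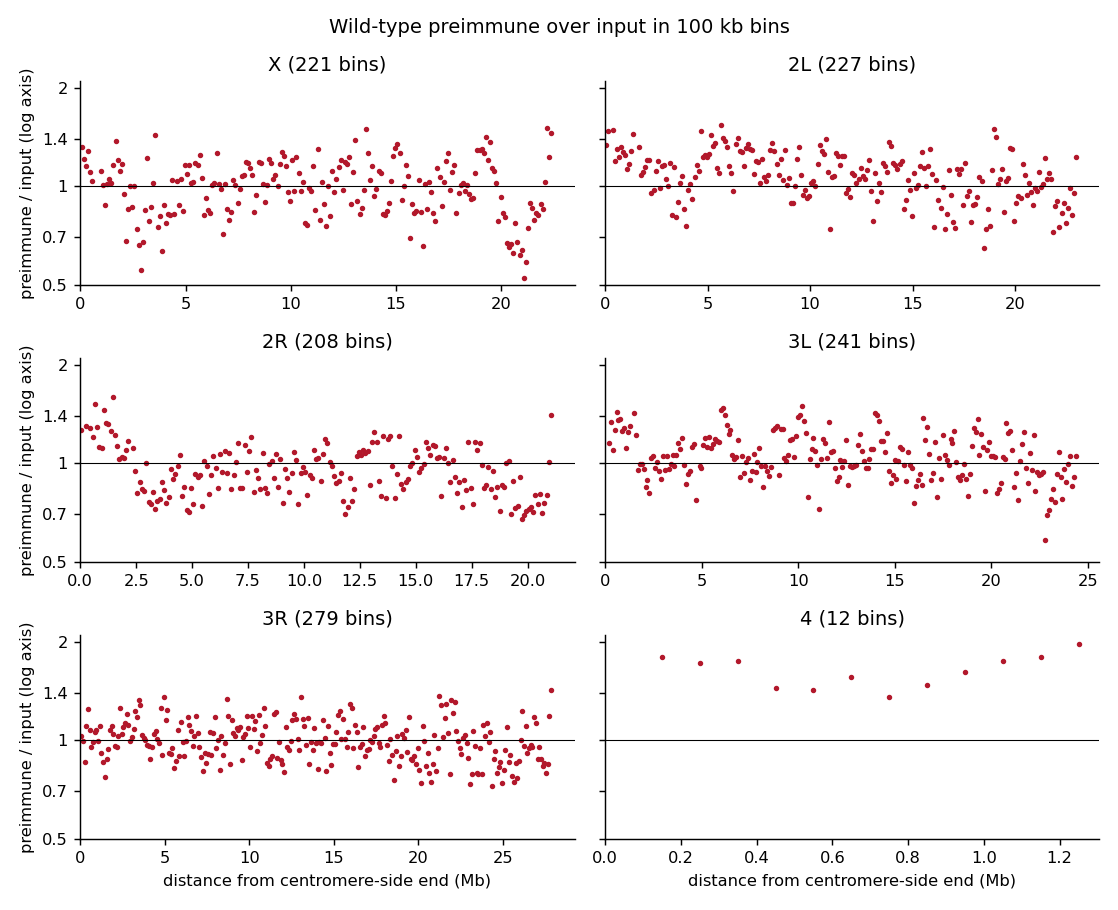
Ratio of wild-type preimmune to input (log axis) in bins of 100 kb, by distance from the centromere-side end of each arm in Mb; 1 point is 1 bin with at least 50 tested windows. All 12 bins of chromosome 4 lie above 1, and 2L, 2R and 3L start above 1 at the centromere side.

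Bins of 100 kb placed the broad differences. The highest 5 of the 1188 were all on chromosome 4. Among large-arm bins with at least 50 tested windows, the highest were 2R 1400001 to 1500000 at 1.60 (1.53 to 1.67), 2L 17300001 to 17400000 at 1.54 (1.49 to 1.58) and 2R 600001 to 700000 at 1.52 (1.47 to 1.58). The lowest were X 1300001 to 1400000 at 0.523 (0.509 to 0.537), X 19500001 to 19600000 at 0.554 (0.540 to 0.569), 3L 1700001 to 1800000 at 0.583 (0.568 to 0.598), X 1200001 to 1300000 at 0.588 (0.572 to 0.604) and X 1500001 to 1600000 at 0.618 (0.601 to 0.635). In the first of these, 52 of 99 windows were called lower and 0 higher. All 5 low bins were low in su(Hw)f as well, at 0.627 to 0.727.

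The longest stretches outside chromosome 4 were low ones. X 1100001 to 2200000, 11 bins in a row at 0.8 or less, held 93798 preimmune and 166538 input reads, a ratio of 0.651 (0.646 to 0.656) beside 0.761 in su(Hw)f. 2R 19700001 to 20500000 followed with 8 bins at 0.725 (0.718 to 0.731). The longest high stretch on a large arm was 3L 23500001 to 24100000, near the centromere side, with 6 bins at 1.32 (1.30 to 1.35). X 3100001 to 3600000 (1.31) and 2R 1000001 to 1500000 (1.37) had 5 bins each. 2L had 5 high stretches of 4 bins between 12200001 and 18000000, of which 17000001 to 17400000 was the highest at 1.41 (1.39 to 1.43). The limits of 1.25 and 0.8 for bins were chosen after the values were seen.

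Most differences were nonetheless short. The spread of the log2 ratio over the large arms had an SD of 1.53 in 100 bp windows, 0.769 in 1 kb windows, 0.407 in 10 kb windows and 0.254 in 100 kb windows. Counting error alone would give 0.830, 0.211, 0.0662 and 0.0203. The share of windows past 2-fold went from 19.3% at 1 kb to 1.30% at 10 kb and 0.0845% at 100 kb. Differences between preimmune and input were thus largest over short distances, and what remained at 100 kb was still 12.5 times the counting error. The log2 ratio of a window correlated with that of the next at r = 0.267 to 0.349 on the large arms, with that 10 kb away at 0.091 to 0.155, and with that 100 kb away at 0.030 to 0.078; X was at the top of each of these ranges. These correlations are across windows of 1 pair of libraries and describe their texture.

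Called windows formed 9007 runs of adjacent windows in the higher direction and 8340 in the lower. Single windows made up 82.0% of the higher runs and 75.8% of the lower. Runs of 5 windows or more numbered 21 higher and 105 lower. X held 42 of the 105 lower runs and chromosome 4 held 7 of the 21 higher ones. Of the 113907 tested windows X held 20987, and of the 11403 called lower it held 2678. Chromosome 4 held 1169 of the tested windows and 433 of the 11102 called higher. A window called lower was followed by another in 27.1% of cases, on X in 34.5%, and a window called higher was followed by a lower one in 3.59%. Of all tested windows 10.01% were called lower, and of those on X 12.8%.

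The longest lower run, X 15613001 to 15624000, covered 11 kb and held 733 preimmune against 2529 input reads, a ratio of 0.335 (0.308 to 0.364). X 6136001 to 6146000 came next, with 10 windows at 0.346 (0.316 to 0.378). Then followed 2L 6976001 to 6985000 at 0.345 (0.315 to 0.377), 3L 2095001 to 2104000 at 0.365 (0.332 to 0.400), each of 9 windows, and 3L 1761001 to 1769000 at 0.326 (0.296 to 0.360), the lowest of the 7 lower runs of 8 windows. These 5 runs were lower in su(Hw)f too, at 0.427 to 0.628. The longest higher runs were shorter. 2L 17663001 to 17670000 had 7 windows with 1175 preimmune and 537 input reads, at 2.53 (2.28 to 2.81), and 4 661001 to 668000 had 7 windows at 2.48 (2.21 to 2.79). Of the 5 higher runs of 6 windows, the 3 with the largest ratios were 2L 16578001 to 16584000 at 2.97 (2.64 to 3.34), 2R 17652001 to 17658000 at 2.82 (2.48 to 3.22) and 4 742001 to 748000 at 2.69 (2.34 to 3.10). In su(Hw)f these 5 runs stood at 1.64 to 2.24.

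Within a window the sign was mostly shared by its 100 bp pieces. In windows called higher, a median of 8 of 10 pieces had more scaled preimmune than input reads, and in 15.3% of them all 10 did. In windows called lower, a median of 9 of 10 pieces had fewer, and in 36.7% all 10 did. Lower windows were thus the more even by this count. A piece empty in both libraries counted as not sharing the sign, and such pieces were commoner in higher windows. Windows without any numbered 9666 of the 11102 called higher and 10821 of the 11403 called lower. Leaving out the fullest 100 bp piece, preimmune's for higher and input's for lower windows, left 7310 (65.8%) of the windows called higher and 8761 (76.8%) of those called lower past 2-fold.

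The 10 windows with the highest lower bound of the ratio stood between 7.04-fold and 11.5-fold. X 11943001 to 11944000 held 219 preimmune and 22 input reads, a ratio of 11.5 (7.41 to 18.7). 2L 8714001 to 8715000 held 445 and 61 reads, a ratio of 8.43 (6.44 to 11.2), and 118 of its preimmune reads lay in a single 100 bp piece. 2L 7285001 to 7286000 held 317 and 43 reads, a ratio of 8.52 (6.18 to 12.01). In the first window preimmune was 2.19 times its library median and input 0.190 times its own. In the second the multiples were 4.45 and 0.526. The ratio thus drew on both libraries in each, with more from preimmune in the second. X 2684001 to 2685000, at rank 4, held 678 and 106 reads, a ratio of 7.39 (6.02 to 9.16), and was the only one of the 10 with a preimmune level over 5 times the median (6.78) and an input near its own (0.914). The others were X 20792001 to 20793000, 3L 5043001 to 5044000, 2L 18330001 to 18331000, 3L 15774001 to 15775000, 2L 16642001 to 16643000 and 3R 2530001 to 2531000, with 120 to 416 preimmune and 14 to 64 input reads. 3L 5043001 to 5044000 lay at the edge of a stretch without reads, and 7 of its 10 pieces were higher in preimmune. 3R 2530001 to 2531000 also began with pieces empty in every library, and 5 of its 10 pieces were higher. The 10 windows that flank each of the highest, 5 kb to either side, had ratios of 0.892 to 2.26 together. Each named window was chosen as the most extreme within 5 kb, so lower flanks are largely set by that choice. The flanks of 3L 5043001 to 5044000 rest on 127 preimmune and 155 input reads. The 2.26 belonged to the window at rank 4.

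That window was the start of a block. X 2684001 to 2691000 held 2620 preimmune reads against 781 input reads over 7 windows, a ratio of 3.88 (3.58 to 4.21). Preimmune was 6.13-fold higher (5.33 to 7.07) in its first 2 windows, 2.41-fold (2.15 to 2.71) in the middle 4, of which the last was at 1.07 (0.821 to 1.38), and 4.80-fold (3.89 to 5.96) in the last. The window before the block was at 1.51 (1.13 to 2.04) and the one after it at 0.923 (0.744 to 1.14). In that last window su(Hw)f held 377 preimmune reads and 1 input read. The 4 windows after it were nearly empty in both su(Hw)f libraries, with at most 8 preimmune and 2 input reads each, where wild-type input held 47 to 198. The limits of the block were drawn after its values were seen.

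**Figure D4:**
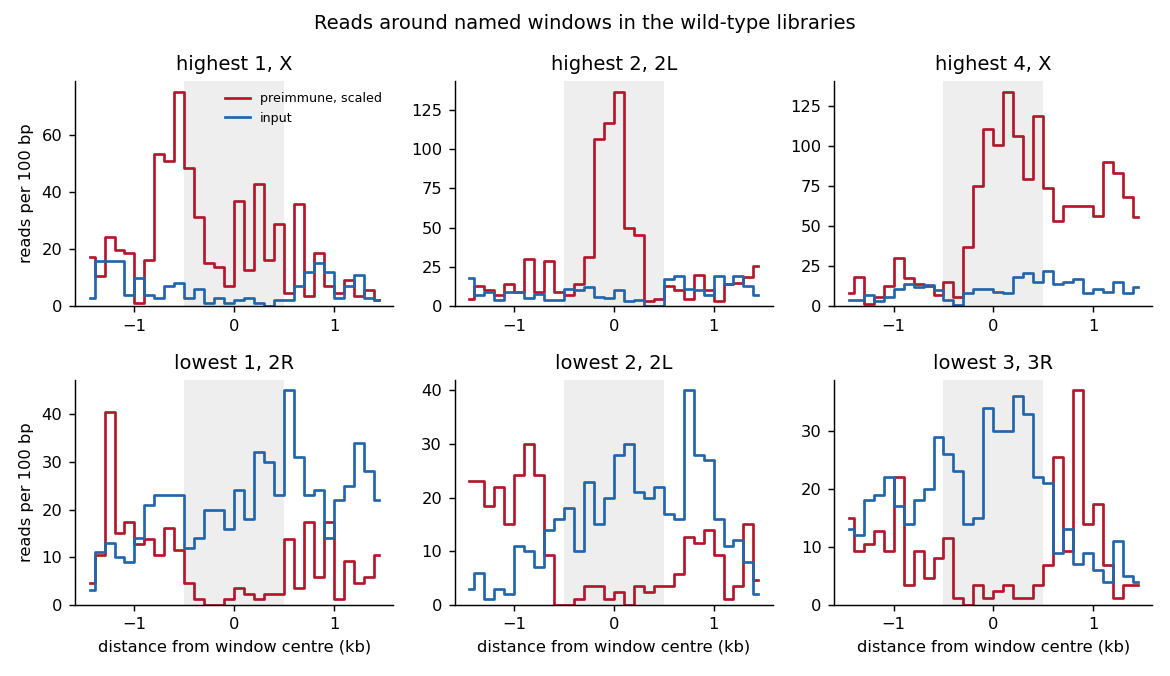
Reads per 100 bp of wild-type preimmune (red, scaled to the input library) and input (blue), by distance from the centre of 6 named windows (grey band, 1 kb). The upper row shows windows at ranks 1, 2 and 4 for a high ratio, with up to 42, 118 and 116 unscaled preimmune reads in a piece; the lower row shows ranks 1 to 3 for a low ratio, where preimmune held at most 4, 3 and 10 reads in a piece.

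The 10 windows with the lowest upper bound were chosen by the reverse rule, which favours high input with low preimmune. In 9 of them input was 1.42 to 2.39 times its median and preimmune 0.14 to 0.32 times its own. 2R 17006001 to 17007000 held 16 preimmune and 209 input reads, a ratio of 0.0885 (0.0497 to 0.147). 2L 10773001 to 10774000 held 18 and 207 reads, a ratio of 0.101 (0.0584 to 0.163). 3R 1001001 to 1002000 held 25 and 263 reads, a ratio of 0.110 (0.0698 to 0.166). The deficit ran across these windows, with all 10 pieces lower in each of the 3. The other 6 of the 9 were 3L 6984001 to 6985000, 2R 17523001 to 17524000, 2R 20199001 to 20200000, X 10361001 to 10362000, 2R 16892001 to 16893000 and X 1893001 to 1894000, with 14 to 32 preimmune and 165 to 277 input reads. The flanks were mixed: those of X 1893001 to 1894000 were at 0.480 (0.441 to 0.523) and those of 3L 6984001 to 6985000 at 1.26 (1.15 to 1.39).

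The remaining one of the 10, X 11095001 to 11096000, was the one tested window without a preimmune read. It held 27 input reads, 0.233 times the input median, in 2 pieces of 100 bp, of which 1 held 22. With 3 counts as the limit that a count of 0 allows, preimmune was at most 0.128 times input there, and the upper bound of the exact interval was 0.169. No tested window was without input reads.

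**Figure D5:**
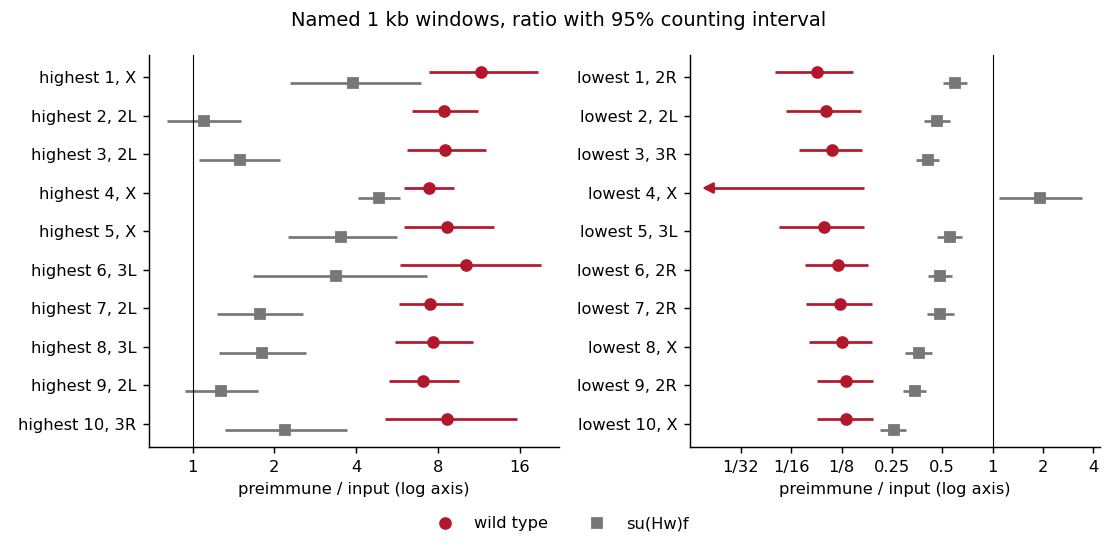
Ratio of preimmune to input (log axis) with 95% counting intervals in the 10 windows ranked highest (left) and lowest (right) in wild type, in wild type (red circles) and su(Hw)f (grey squares). The red arrowhead marks the window with 0 preimmune reads, whose interval reaches down to 0. The su(Hw)f ratio lies nearer to 1 than the wild-type ratio in all of them but the window with 0 reads, where it lies on the other side of 1.

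High preimmune counts by themselves were few. Preimmune reached 4 times its median in 20 windows, and input reached 4 times its own in 8. These 20 windows were singled out after their values were seen. In 14 of them input was under 2 times its median, with ratios of 2.19 to 8.43. With preimmune at 4 times its median or more, that split leaves ratios of about 2 or more, so the lower end is set by the choice. In the other 6 input was high as well, and the ratios were 0.902 to 2.81. The fullest preimmune window of all, X 8188001 to 8189000, held 1872 reads, 18.7 times the median, with 770 reads in input, 6.64 times the median, and a ratio of 2.81 (2.58 to 3.06). 2R 996001 to 997000 had the most input reads, 1363 against 1063 in preimmune, and a ratio of 0.902 (0.831 to 0.978).

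The mutant libraries, of 20130453 preimmune and 20596448 input reads, give a ratio that shares no library with the wild-type one. On chromosome 4 it was 1.58 (1.56 to 1.59), beside 1.62 in wild type. The levels behind it differed: there su(Hw)f preimmune was 0.724 times and su(Hw)f input 0.435 times the median of the large arms, where the wild-type multiples were 1.06 and 0.612. In su(Hw)f 6.82% of windows were called higher and 3.35% lower. Of the wild-type windows called higher and tested in both, 3721 of 10984 (33.9%) were called higher in su(Hw)f, which is 48.4% of the mutant's 7692. Of those called lower, 2554 of 11391 (22.4%) were called lower in su(Hw)f, 67.4% of the mutant's 3789. Preimmune exceeded input in su(Hw)f in 96.1% of the wild-type windows called higher, against 59.2% of all windows. It was below input in 92.5% of those called lower, against 40.8% of all. In the 539 windows with a wild-type log2 ratio of 2 or more, the median was 2.20, while in su(Hw)f these windows had a median of 1.11. These windows were chosen by their wild-type value, so a smaller value in su(Hw)f is partly set by the choice, and with 1 library per group the difference between genotypes was not tested.

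The strongest wild-type windows were repeated unevenly. Of the 10 highest, 5 were at least 2-fold higher in su(Hw)f too, among them X 2684001 to 2685000 at 4.85 (4.07 to 5.81) and X 11943001 to 11944000 at 3.88 (2.28 to 6.94). 2L 8714001 to 8715000, at 8.43 in wild type, was at 1.10 (0.807 to 1.51) in su(Hw)f, and 2L 16642001 to 16643000, at 7.04, was at 1.27 (0.938 to 1.74); both intervals include 1. Of the 10 lowest, 7 were at least 2-fold lower in su(Hw)f, from 0.256 to 0.488. The strain differs along with the genotype, so strain and genotype cannot be told apart in these differences.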

How the data were processed

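The deposited values are whole-number read counts per 100 bp window in wiggle format, 1 file a library, per the file headers; their totals differ, so they were not scaled. Genome build dm3 and Partek 6.5 are listed in the submitters' processing notes. For the aligner, its handling of multiply mapping reads and any removal of duplicates, the answer is not given in the sources used here; these can empty repeats or inflate single pieces. Coordinates are dm3, 1-based. No dm3 sequence or annotation was used, so no gene names, sequences or base composition are reported.

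Counts were summed to 1 kb windows on the 6 major arms with Python 3.11.15, numpy 2.4.6, pandas 2.3.3 and scipy 1.17.1. Libraries were scaled to their reads on those arms. A window was tested at 20 reads or more in both libraries together and called at 2-fold. Log2 ratios used a pseudocount of 0.5; ratios and calls used none. Intervals are 95% exact conditional (Clopper-Pearson) intervals. Calling was tested on simulated counts. With 1 library a group there was no test and no p-value.

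Named were the 10 windows with the highest lower bound and the 10 with the lowest upper bound, at least 5 kb apart, the 5 longest runs each way, and the 5 highest and 5 lowest bins of 100 kb; other windows are said to be chosen after their values were seen. The members and rules were chosen with earlier results of these data known. The 2 immunoprecipitation samples were not analysed here.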

Additional observations from a re-analysis of the deposited data

Results flagged for a closer look

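X 11095001 to 11096000 moved in opposite directions in the genotypes: preimmune held 0 reads against 27 in input in wild type, while in su(Hw)f it held 39 against 21, a ratio of 1.91 (1.10 to 3.41). It was the only one of the 20 named windows and 10 named runs to do so, and the difference was not tested. In each library the window was empty outside its last 2 pieces of 100 bp, at the edge of a stretch without reads. Its values in both genotypes rest on those pieces. Such reversals were not confined to it. Of the 10984 wild-type windows called higher and tested in both genotypes, 5 were called lower in su(Hw)f. Of the 11391 called lower, 14 were called higher there. X 11095001 to 11096000, at 1.91 in su(Hw)f, is not among these.

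The telomere-side 1.5 Mb of 3R were below 1 in wild type, at 0.962, and above 1 in su(Hw)f, at 1.04. This difference was not tested either.

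On 7 scaffolds outside the major arms the scaled ratio of preimmune to input was above 1 in wild type, with counting intervals above 1; YHet had an interval that includes 1. The ratios were 1.33 on 3LHet, 1.30 on 3RHet, 1.29 on 2RHet, 1.25 on U, Uextra and 2LHet, and 1.17 on XHet. These scaffolds entered no comparison above.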

How the results depend on the processing

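The counts of windows higher and lower depend on window size and threshold. They were 32834 and 33710 in 500 bp windows, 489 and 530 in 5 kb windows, and 89 and 100 in 10 kb windows. At 1.5-fold they were 25714 and 25093, at 3-fold 2323 and 2375, and 3554 and 3797 windows had an interval wholly past 2-fold. Read minimums of 10, 50 and none, shifted windows, caps on full pieces and other scalings left both counts within 1.5 times. Leaving out the fullest 100 bp piece of preimmune (for higher windows) or input (for lower windows), an alternative chosen after seeing the data, gave 7470 and 9269 windows past 2-fold. These were counted over all tested windows, so they include windows not called before.

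The share of called windows that were higher, 49.3%, became 48.4% with scaling to all reads and 47.1% with scaling to the median ratio. It was 48.0% in 5 kb and 47.1% in 10 kb windows, 50.6% at 1.5-fold, 48.3% by interval, 47.2% in windows without empty pieces and 44.6% without the fullest piece.

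Scaled to all reads, to the large arms and to the median ratio, X was at 0.963, 0.973 and 0.956, 2L at 1.053, 1.063 and 1.045, 2R at 0.925, 0.934 and 0.918, 3L at 1.026, 1.036 and 1.018, and 3R at 0.984, 0.994 and 0.977. Chromosome 4 was at 1.60 under the last. No arm changed sides. The difference in median log2 ratio between the lowest and highest input classes was 2.01, and 2.05 with classes from su(Hw)f input. The latter input ranks windows much as wild-type input does.

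With 100 bp pieces capped at 52 preimmune and 41 input reads, 2L 8714001 to 8715000 was at 5.50, X 2684001 to 2685000 at 4.52 and 2L 18330001 to 18331000 at 5.57. Joining runs across 1 window made the longest 17 windows higher and 29 lower. The causes of these shifts, beyond how each alternative is built, were not tested.

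No paired analysis was possible because each group holds 1 library. That also leaves the variation between ovaries unmeasured, and depth limits single windows to differences outside their counting intervals.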
